A study of Mus musculus with 6 samples.

Results

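The genes followed here are 9 interferon-inducible GTPases, Gbp2, Gbp3, Gbp5, Gbp6, Gbp7, Igtp, Irgm1, Irgm2 and Iigp1, and Irf1, the transcription factor that carries much of the interferon gamma response to them. They were taken by symbol from the deposited expression table, in which all 10 had a row among 24421 genes. RNA-seq was run on 3 mouse breast cancer tissues, called tumours here, and on 3 mammary glands, all from female FVB/NJ mice 5 months of age. The tumours came from tumour-bearing FVB/NJ; MMTV-Tg(LINK-A) mice. The name joins the MMTV promoter, active mainly in mammary epithelium, to a transgene of the long noncoding RNA LINK-A. It does not by itself say how MMTV acts on the transgene. The glands came from mice labelled FVB/NJ; Tg(LINK-A), so that both groups carry a LINK-A transgene, and genotype and tissue cannot be told apart. The labels do not say whether the 3 libraries of a group came from separate animals, and every p-value here rests on how far these libraries differ, which may be technical. The values were read as FPKM, fragments scaled to transcript length and library size, from their form and sums, and levels of different genes are set beside each other here on that reading.

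Interferon gamma is made by T and NK cells and binds a receptor of Ifngr1 and Ifngr2 chains, whose kinases Jak1 and Jak2 start a signal that acts at gamma activated sites and induces Irf1, which then acts at interferon response elements. Type I interferons act through a complex with Stat2 and Irf9 on the same kind of response element. The guanylate-binding proteins (Gbp) and the immunity-related GTPases (Igtp, Irgm1, Irgm2 and Iigp1) are large GTPases that assemble on the vacuoles of intracellular parasites and bacteria and help to break them open.

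The genes lie in clusters of the mouse genome (GRCm38, GENCODE M21). Gbp5 (142493978 to 142522344), Gbp7 (142530342 to 142550149), Gbp3 (142560026 to 142573209) and Gbp2 (142620602 to 142638008) follow each other on the plus strand of chromosome 3, and Gbp6 lies on the minus strand of chromosome 5 (105270702 to 105293698). Irgm1 (48861968 to 48871683, minus strand), Irf1 (53770014 to 53778374, plus strand), Igtp (58199556 to 58207591, plus strand) and Irgm2 (58199618 to 58222782, plus strand) lie on chromosome 11. The annotated spans of Igtp and Irgm2 overlap on the same strand, and 11.8% of the 50-base words in Igtp transcripts also occur in those of Irgm2, as do 6.79% the other way round, so that their levels are not cleanly separate. Of the words in Gbp6 transcripts 70.7% occur in transcripts of another gene, 65% in the overlapping Gm43302, and 73.3% of those of Gbp10 occur in Gbp6, so that the level of Gbp6 is uncertain. For Gbp7 the shared part was 12.7%, and for Gbp2, Gbp3, Gbp5, Irgm1, Irf1 and Iigp1 it lay between 0% and 3.75%.

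RefSeq promoter sequences (GRCm38.p6) were searched for 8 of the 10 genes. Gbp6 and Iigp1, both lower in the tumours, were left out of the search. Their absence does not show that they lack a promoter sequence or either motif. The sequences are shown because Gbp3 and Irgm1 share a motif arrangement not found in the other 6 genes searched. Gbp3 and Irgm1 are also the genes whose tumour values lay above the glands. Any link between motifs and the direction of change was not tested. The 250 bases before each RefSeq start were searched on both strands for the gamma activated site TTCNNNGAA and for the interferon response element, taken as GAAA, any 2 bases and GAAA (TTTC and TTTC on the other strand). The 120 bases before the start of 6 of the genes are given 5′ to 3′ on the strand of the gene, with matches to either motif in capitals.
Gbp3 (chr3:142559924-142560043, plus strand): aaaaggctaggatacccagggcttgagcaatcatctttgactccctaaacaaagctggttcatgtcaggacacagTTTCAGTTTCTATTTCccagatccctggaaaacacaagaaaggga
Irgm1 (chr11:48871421-48871540, minus strand): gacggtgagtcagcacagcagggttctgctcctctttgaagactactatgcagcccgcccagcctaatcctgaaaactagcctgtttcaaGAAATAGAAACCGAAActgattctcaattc
Gbp2 (chr3:142620543-142620662, plus strand): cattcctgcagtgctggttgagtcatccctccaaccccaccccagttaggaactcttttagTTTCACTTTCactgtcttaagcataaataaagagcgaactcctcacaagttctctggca
Irf1 (chr11:53769894-53770013, plus strand): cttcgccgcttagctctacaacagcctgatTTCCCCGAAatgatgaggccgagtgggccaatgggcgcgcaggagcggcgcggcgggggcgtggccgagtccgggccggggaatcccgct
Igtp (chr11:58199436-58199555, plus strand): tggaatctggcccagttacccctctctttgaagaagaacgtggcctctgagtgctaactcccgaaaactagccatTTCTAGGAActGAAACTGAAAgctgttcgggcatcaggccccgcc
Irgm2 (chr11:58214857-58214976, plus strand): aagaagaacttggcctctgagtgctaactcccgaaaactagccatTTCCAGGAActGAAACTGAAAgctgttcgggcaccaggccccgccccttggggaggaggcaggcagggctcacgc

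All 8 genes had at least 1 of the motifs within 250 bases of a RefSeq start. Gbp3 and Irf1 each have another listed start, with no match before it, and the starts shown are those with matches. Irf1 had a gamma activated site and no response element, and Gbp2 a response element and no gamma activated site. Gbp5, Gbp7, Igtp and Irgm2 had both, and in Igtp and Irgm2 the pair stood in the same order and spacing. Gbp3 and Irgm1 each had 2 overlapping response elements and no gamma activated site. Over 32851 RefSeq promoter windows of the same length, 7.02% held the gamma activated site, 2.98% the response element and 0.332% both. A match is a run of letters and not a measured binding site.

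Irf1 and 4 of the GTPases fell in the tumours, 1 GTPase rose, and the other 4 did not pass the test. Of all 13364 genes tested, 45.1% passed an adjusted p of 0.05, 21.9% higher and 23.1% lower in the tumours, so that a call by itself sets no gene apart here. The median log2 fold change was -0.90 over the 10 genes and 0.01 over all tested genes. Tumour and gland values did not overlap for 8 of the 10 genes, 6 with the tumours below and 2 with the tumours above, against 58.2% of all tested genes, 29.0% below and 29.3% above. Bulk tissue cannot tell fewer cells of a type from less RNA per cell.

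**Figure D1:**
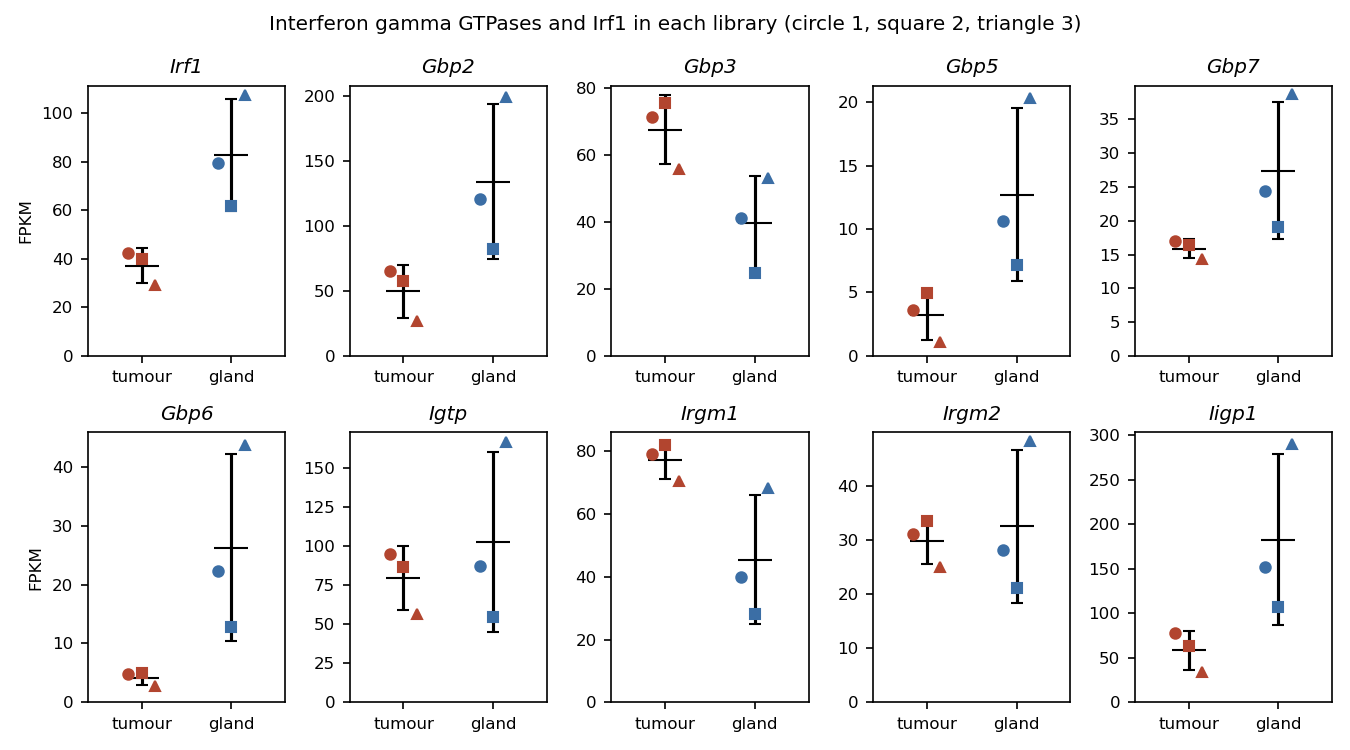
FPKM of each of the 10 genes in each library, tumours left of glands; points are libraries (circle 1, square 2, triangle 3), bars the mean and SD of 3. Irf1, Gbp2, Gbp5, Gbp6, Gbp7 and Iigp1 lay lower in every tumour than in any gland, Gbp3 and Irgm1 higher in every tumour, and Igtp and Irgm2 overlapped.

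Irf1 stood at 42.4, 40.1 and 29.2 FPKM in tumours 1 to 3, against 79.2, 61.6 and 107 FPKM in glands 1 to 3. Every tumour lay below every gland. The mean was 37.2 ± 7.03 FPKM in tumours and 82.7 ± 23.0 FPKM in glands (SD, n = 3 each). The difference was -1.11 (SE 0.23, adjusted p = 0.00775 in limma) on the log2(FPKM + 1) scale used for all fold changes here. Irf1 kept its call without any single library, with adjusted p between 0.00593 and 0.0253, and lost it without glands 1 and 3 together (-0.73, adjusted p = 0.158), a fit that leaves 1 gland.

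Among the guanylate-binding proteins of chromosome 3, Gbp2, which is recruited to parasite vacuoles, stood at 65.2, 57.6 and 26.8 FPKM in tumours 1 to 3 and at 121, 82.1 and 199 FPKM in glands 1 to 3. Gbp2 fell by 1.41 on the log2 scale (SE 0.42, adjusted p = 0.0307). Gbp5, which promotes inflammasome assembly in macrophages, stood at 3.63, 4.92 and 1.11 FPKM in tumours, against 10.6, 7.19 and 20.3 FPKM in glands, and fell by 1.71 (SE 0.47, adjusted p = 0.0240). For both genes the lowest gland was above the highest tumour, and tumour 3 was the lowest library of all. Gbp2 missed the threshold when gland 1, gland 3 or tumour 2 was left out, with an adjusted p of 0.0696, 0.0924 and 0.0555 in that order. Gbp5 missed it when gland 1 (0.0545) or gland 3 (0.0748) was left out. Gbp7 stood at 17.04, 16.3 and 14.3 FPKM in tumours and at 24.5, 19.1 and 38.7 FPKM in glands, with no overlap. It narrowly missed the threshold, at -0.69 on the log2 scale (SE 0.24, adjusted p = 0.0545), and passed without gland 2 (-0.92, adjusted p = 0.0194), under 3 other scalings (adjusted p of 0.0411 with quantiles, 0.0454 with median-of-ratios and 0.0400 with a common sum).

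Gbp3, which lies between Gbp7 and Gbp2 with only Gbp2b beside it, went the other way. Its level was 71.6, 75.5 and 55.9 FPKM in tumours 1 to 3, against 41.1, 24.9 and 53.1 FPKM in glands 1 to 3. The lowest tumour, tumour 3, was just above the highest gland, gland 3. Gbp3 rose by 0.81 on the log2 scale (SE 0.27, adjusted p = 0.0480), the weakest of the 6 calls. It did not pass when gland 1, gland 2, tumour 1 or tumour 2 was left out, with an adjusted p of 0.0857, 0.0762, 0.110 and 0.138 in that order and a log2 fold change of at least 0.51. It did not pass with quantiles (0.70) or a common sum (0.74) as the scaling either (adjusted p of 0.0609 and 0.0592).

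Gbp6, of the chromosome 5 cluster, had the largest difference of the 10 genes. It stood at 4.88, 4.91 and 2.71 FPKM in tumours 1 to 3 and at 22.2, 12.9 and 43.7 FPKM in glands 1 to 3. Its mean was 6.30 times higher in glands than in tumours. On the log2 scale it fell by 2.27 (SE 0.42, adjusted p = 0.00497), which passed without any single library and not without glands 1 and 3 together (-1.46, adjusted p = 0.0828). Its near-copy Gbp10, which shares most of its transcript words, stood at 4.82 ± 1.78 FPKM in tumours and 33.6 ± 21.4 FPKM in glands (-2.45, SE 0.45, adjusted p = 0.00477).

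Of the immunity-related GTPases, the effector Iigp1, which coats parasite vacuoles, was the most abundant of the 10 genes in glands. It stood at 77.8, 63.0 and 34.5 FPKM in tumours 1 to 3 and at 151, 107 and 290 FPKM in glands 1 to 3, and fell by 1.58 on the log2 scale (SE 0.42, adjusted p = 0.0215). No tumour reached the lowest gland. The call was lost without gland 3 (-1.18, adjusted p = 0.0536) or tumour 2 (-1.67, adjusted p = 0.0510).

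The regulatory members, which hold the effectors inactive on the membranes of the cell itself, did not follow Iigp1. Irgm1 stood at 79.0, 81.8 and 70.5 FPKM in tumours 1 to 3, against 40.0, 28.1 and 68.2 FPKM in glands 1 to 3. All tumours were above all glands, gland 3 by a narrow margin. The log2 fold change of 0.84 (SE 0.29, adjusted p = 0.0542) just missed the threshold and passed without gland 3 (1.17, adjusted p = 0.00671) and under median-of-ratios scaling (adjusted p = 0.0494). Igtp (also called Irgm3) stood at 95.3, 87.0 and 56.7 FPKM in tumours and at 87.1, 54.5 and 167 FPKM in glands, with a log2 fold change of -0.25 (95% interval -1.20 to 0.71, adjusted p = 0.643) that turned to 0.17 without gland 3. Irgm2 stood at 31.3, 33.5 and 25.1 FPKM in tumours and at 28.3, 21.2 and 48.5 FPKM in glands, with -0.05 (95% interval -0.73 to 0.64, adjusted p = 0.906), 0.27 without gland 3 and 0.07 without tumour 3. For Igtp and Irgm2 the groups overlapped, and the intervals leave room for changes of either direction.

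**Figure D2:**
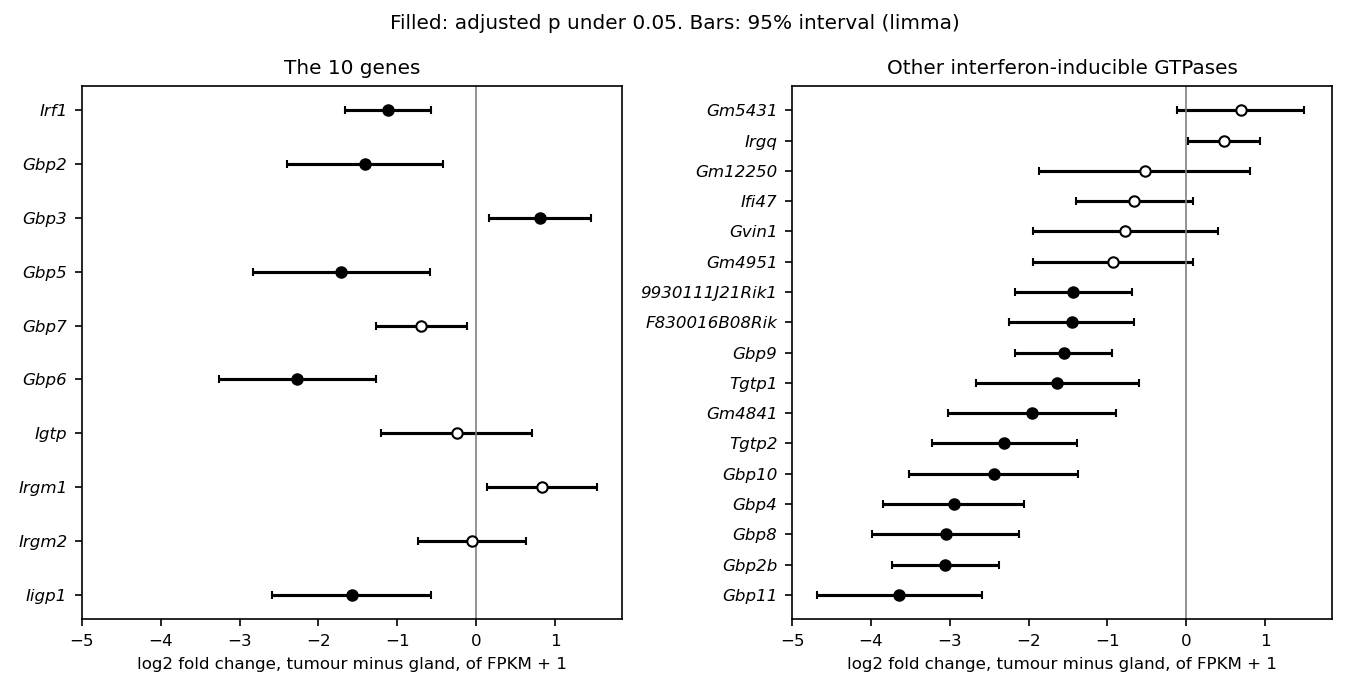
Log2 fold change, tumour minus gland, of log2(FPKM + 1), with 95% intervals from limma, for the 10 genes (left) and the 17 tested other interferon-inducible GTPases (right); filled points passed an adjusted p of 0.05. The 10 genes run from -2.27 for Gbp6 to 0.84 for Irgm1, and the others from -3.64 for Gbp11 to 0.69 for Gm5431.

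Neighbours and relatives were also compared as ratios of FPKM within the same library. The 6 ratios were chosen after the values were seen. Gbp3 had 1.10, 1.31 and 2.08 times the FPKM of Gbp2 in tumours 1 to 3, against 0.340, 0.303 and 0.267 times in glands 1 to 3. Irgm1 had 2.53, 2.44 and 2.81 times the FPKM of Irgm2 in tumours, against 1.42, 1.33 and 1.41 times in glands. Gbp3 relative to Gbp7 ranged over 3.91 to 4.62 across the tumours and 1.30 to 1.68 across the glands, and Irgm1 relative to Iigp1 over 1.01 to 2.04 across the tumours and 0.235 to 0.264 across the glands. All 6 ratios were higher in every tumour than in any gland. For Gbp3 to Gbp2, Gbp5 and Gbp7 and for Irgm1 to Iigp1 this was fixed in advance. In those pairs the first gene was already higher, and the second already lower, in every tumour. Only the ratios of Irgm1 to Igtp and to Irgm2 could have overlapped. Each of the 6 ratios had p = 0.1 in a 2-sided exact permutation test over the 20 arrangements (0.1 after Benjamini-Hochberg adjustment over the 6). It is the smallest p that 3 against 3 can give, so that no ratio can pass 0.05 in this design.

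**Figure D3:**
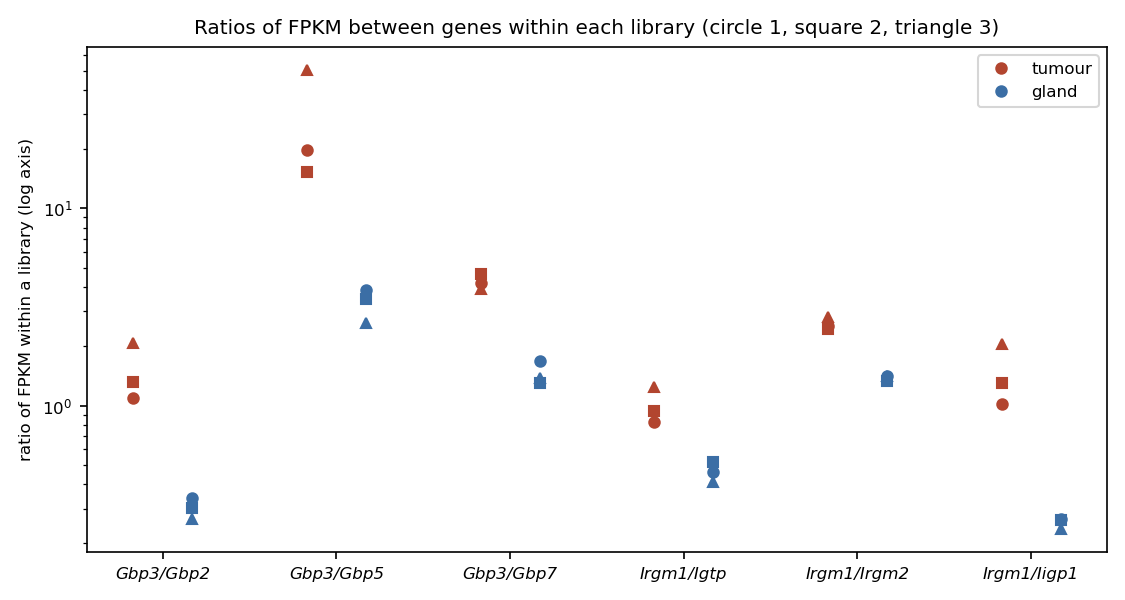
Ratio of the FPKM of one gene to another within each library, on a log axis, tumours left of glands; points are libraries (circle 1, square 2, triangle 3). For each of the 6 pairs the 3 tumours lie above the 3 glands, without overlap.

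The 10 genes shared an order of libraries within each group. Gland 3 was the highest gland and gland 2 the lowest for all 10, an order found in 24.5% of all tested genes, and tumour 3 was the lowest tumour for all 10, as it was for 39.4% of all tested genes. The highest gland had between 1.74 (Irf1) and 3.40 (Gbp6) times the FPKM of the lowest. The highest tumour had between 1.16 (Irgm1) and 4.44 (Gbp5) times the FPKM of the lowest. Markers of immune cells differed between the same libraries. The 10 T cell markers summed to 38.5, 34.2 and 4.82 FPKM in tumours 1 to 3, against 207, 60.0 and 208 FPKM in glands 1 to 3. Of the 10, 8 were lower in tumours (5 without gland 1, 3 without gland 3 and 10 without gland 2). The sum of 9 NK cell markers was 6.40, 4.44 and 1.61 in tumours and 39.1, 24.6 and 40.0 in glands, and all 7 tested were lower in tumours. The sum of 7 B cell markers was 43.3, 34.9 and 1.13 in tumours and 140, 21.8 and 146 in glands, and none passed (4 lower without gland 2, 1 without tumour 1). The T cell gene Cd3d and the NK cell gene Ncr1 were listed at 0 in tumour 3. Gland 2 thus held the least lymphoid RNA of the glands and tumour 3 the least of the tumours, while glands 1 and 3 were alike in these 3 sums and differed in the GTPases. By mean log2(FPKM + 1), lymph node and dendritic cell markers were highest in gland 3 and lowest in gland 2, like the 10 genes. That order was not particular to them. It also held for T cell, B cell, endothelial and adipocyte markers and for the type I interferon response genes. For T and B cell markers glands 1 and 3 were nearly equal. NK cell, macrophage and neutrophil markers were highest in gland 1. Among the tumours all of these lists were lowest in tumour 3, again like the 10 genes. Summed FPKM of the lymph node markers had another order, at 779, 711 and 1008 in tumours 1 to 3. In glands 1 to 3 it was 1587, 1051 and 1398, so that tumour 3 was the highest tumour and gland 1 the highest gland. The mean log2(FPKM + 1) of 6 lymph node markers was 2.59, 3.05 and 1.71 in tumours 1 to 3, against 4.05, 2.64 and 4.56 in glands 1 to 3 (1 of 5 tested lower, 4 without gland 2, none without gland 1). That of 6 dendritic cell markers was 0.80, 0.77 and 0.54 in tumours, against 2.04, 1.59 and 2.13 in glands (2 of 3 tested lower). The lymph node chemokine Ccl19 was listed at 0, 3.30 and 0 FPKM in tumours 1 to 3, against 0, 0 and 18.7 FPKM in glands 1 to 3. Macrophage markers differed less, with sums of 775, 644 and 367 FPKM in tumours and 823, 732 and 815 FPKM in glands (3 of 8 lower, 5 not passing). The sum of the neutrophil markers went the other way, at 3158, 1875 and 270 FPKM in tumours and 45.1, 24.9 and 37.3 FPKM in glands. Of 4 tested neutrophil markers 1 was higher, S100a8 (5.70), and 3 did not pass. Those 3 were S100a9 (1.37), Csf3r (-0.53) and Cxcr2 (-0.50), so that the markers did not rise as a set. Endothelial markers fell in 6 of 6 cases, with sums of 38.1, 39.6 and 20.6 FPKM in tumours and 185, 165 and 188 FPKM in glands, as did 6 of 6 fibroblast and 6 of 6 adipocyte markers, and 7 of 7 luminal epithelium markers rose. The part of these cell types in the changes of the GTPases was not tested. Set against gland 2 alone, the mean of the tumours was 0.605 times the level for Irf1, 0.324 times for Gbp6 and 0.548 times for Iigp1. It was 0.608 times for Gbp2, 0.448 times for Gbp5 and 0.834 times for Gbp7. For Gbp3 it was 2.72 times and for Irgm1 2.74 times. Igtp (1.46 times) and Irgm2 (1.41 times) also lay above gland 2, unlike their fold changes over all libraries.

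**Figure D4:**
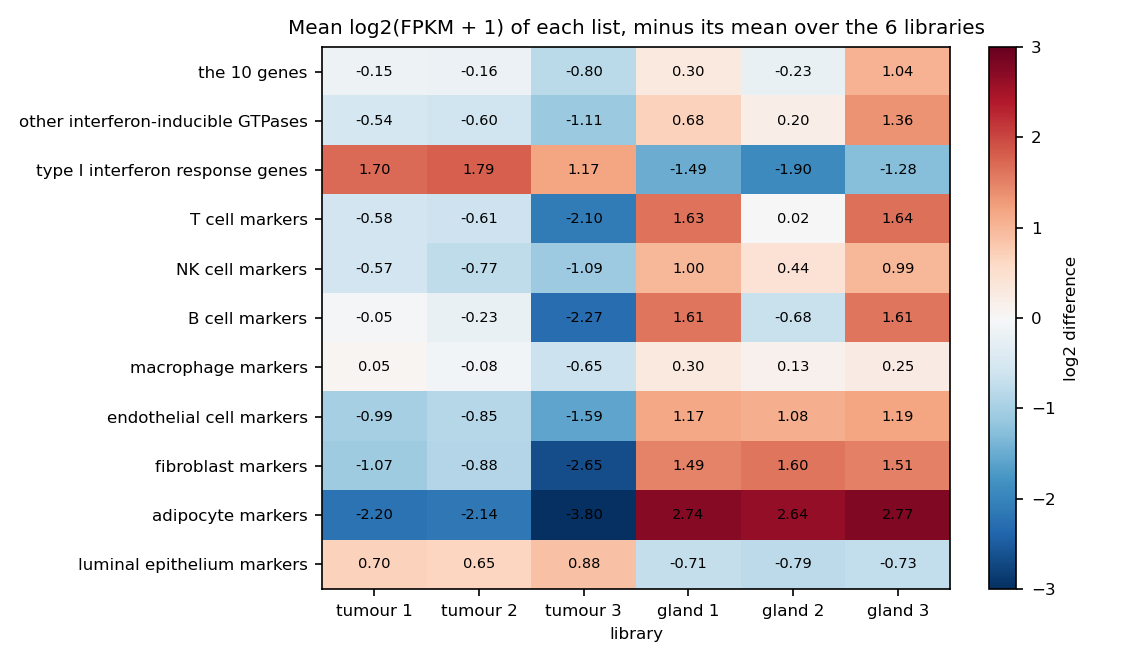
Mean log2(FPKM + 1) of each gene list in each library, minus the mean of the list over the 6 libraries; columns are tumours 1 to 3 and glands 1 to 3, colours the log2 difference. The 10 genes (top row) are lowest in tumour 3 (-0.80) and highest in gland 3 (1.04), while the type I interferon response genes are above their mean in all tumours (1.17 to 1.79).

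Of 19 other interferon-inducible GTPases with a row, 17 were tested, of which 11 fell, none rose and 6 did not pass, with a median log2 fold change of -1.56, and the tumours lay wholly below the glands for 12 of the 19. The tumours lay near 0 for several of them. Gbp2b, beside Gbp2 on chromosome 3, stood at 1.13 ± 0.440 FPKM in tumours and 17.2 ± 6.07 FPKM in glands (-3.06, SE 0.29, adjusted p = 3.0e-04). Gbp4 stood at 1.77 ± 0.417 and 22.4 ± 12.2 FPKM in tumours and glands (-2.95, SE 0.38), Gbp8 at 0.143 ± 0.0916 and 9.56 ± 5.999 FPKM (-3.05, SE 0.39) and Gbp11 at 0.371 ± 0.443 and 17.5 ± 10.2 FPKM (-3.64, SE 0.44). With a pseudocount of 0.1 the fold changes of Gbp8 and Gbp11 were -5.19 and -5.58. Those 4 genes were also called with gland 2 as the only gland. Tgtp2 fell by 2.31 and its near-copy Tgtp1 by 1.64, with 85.8% of the words of Tgtp2 found in Tgtp1, and Tgtp1 missed the threshold without gland 1 (0.0506) or gland 3 (0.0606). Under quantile normalization 8 fell and 2 rose. Ifi47, at 37.2 ± 9.68 FPKM in tumours and 61.1 ± 24.4 FPKM in glands, did not pass (-0.66, adjusted p = 0.127).

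Upstream of these genes, Ifng itself was below the level tested, at 0.39, 0 and 0.13 FPKM in tumours 1 to 3 and 1.77, 0 and 1.56 FPKM in glands 1 to 3, so that gland 2 and tumour 2 were both listed at 0. Of 14 tested genes of its receptor and signalling chain 3 were higher, 2 lower and 9 did not pass (5 higher without tumour 1, and 1 to 4 lower without single libraries, 4 without gland 2). The ligand-binding receptor chain Ifngr1 fell to 44.0 ± 14.6 FPKM in tumours, against 101 ± 8.10 FPKM in glands (-1.24, SE 0.25, adjusted p = 0.00675). Ifngr2 stood at 45.3 ± 2.80 FPKM in tumours and 56.4 ± 7.68 FPKM in glands (-0.30, adjusted p = 0.0876). The kinase Jak1 fell by 0.56 (adjusted p = 0.0314), a call lost without gland 1, gland 3, tumour 1 or tumour 3 (adjusted p between 0.0516 and 0.103). Stat2 and Irf9, which act in type I signalling, rose, Stat2 to 32.7 ± 4.68 FPKM in tumours against 12.8 ± 3.77 FPKM in glands (1.32, SE 0.22, adjusted p = 0.00290) and Irf9 to 57.9 ± 1.998 FPKM in tumours against 30.1 ± 4.64 FPKM in glands (0.93, SE 0.13, adjusted p = 0.00146). The phosphatase Ptpn2, which dampens Jak signalling, rose by 0.70 (adjusted p = 0.0180), a call lost without tumour 2 (adjusted p = 0.0543).

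Of the 8 other interferon regulatory factors 3 rose, 4 fell (2 without gland 1 or without gland 3) and 1 did not pass. The Irf2-binding proteins Irf2bp1 (0.23, adjusted p = 0.189) and Irf2bp2 (-0.17, adjusted p = 0.202), held in the same list, did not pass. Irf7, which amplifies type I interferon, rose to 264 ± 50.1 FPKM in tumours, against 17.5 ± 4.198 FPKM in glands (3.85, SE 0.22, adjusted p = 4.9e-05). Irf2, which binds the same elements as Irf1, fell by 0.86 (SE 0.15, adjusted p = 0.00396), and the lymphoid factor Irf4 by 1.79 (SE 0.30, adjusted p = 0.00302; -3.30 with a pseudocount of 0.1).

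Of 19 tested targets of interferon gamma and Irf1, 1 rose, 9 fell and 9 did not pass, with a median of -0.87. The median was -0.50 without tumour 3 and -0.52 without gland 3, where 6 fell. The T cell attracting chemokine Cxcl9, a gene induced mainly by interferon gamma, fell to 3.60 ± 2.05 FPKM in tumours, against 53.1 ± 19.98 FPKM in glands (-3.58, SE 0.41, adjusted p = 6.2e-04). The adhesion gene Icam1 fell by 2.55, the complement inhibitor Serping1 by 2.62 and Cd274, which encodes PD-L1, by 1.96, and Xaf1 rose by 1.77. The abundant B2m (-0.40), Psmb8 (0.06), Tap1 (-0.14) and Casp1 (0.01), parts of antigen presentation and of the inflammasome, did not pass. Psmb8 turned to -0.08 without gland 2, -0.07 without tumour 1 or with quantiles and -0.01 with a common sum, Casp1 to -0.20 without tumour 1 and below 0 with each other scaling, and Tap1 to 0.04 without gland 3. B2m passed without tumour 1 (-0.51, adjusted p = 0.0471) and with a common sum (-0.47, adjusted p = 0.0295). The type I interferon response genes moved the other way: 19 of 20 rose, none fell and Ifit2 did not pass (1.23, adjusted p = 0.0541), with a median of 3.34. Their summed level was 1920, 1844 and 1285 FPKM in tumours 1 to 3, against 244, 162 and 255 FPKM in glands 1 to 3, so that tumours and glands were far apart while glands kept the order of gland 2 lowest. With any single library left out, 19 or 20 of them rose. The list overlaps the interferon genes already known to rise in these data and is not independent evidence.

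**Figure D5:**
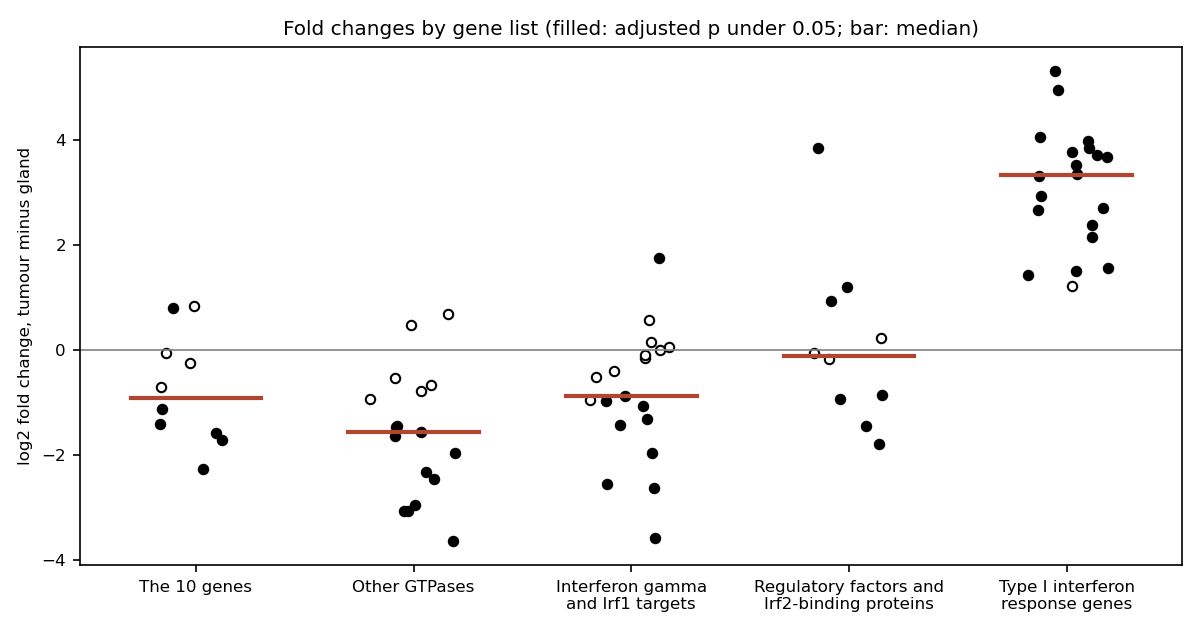
Log2 fold change, tumour minus gland, of each tested gene in 5 lists; filled points passed an adjusted p of 0.05 and red bars are medians. The medians are -0.90 for the 10 genes, -1.56 for the other GTPases, -0.87 for the interferon gamma and Irf1 targets (-0.50 without tumour 3) and 3.34 for the type I interferon response genes.

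Each gene was also set against all other tested genes by the root mean square difference of their centred log2 values over the 6 libraries. The genes nearest to Gbp3 and to Irgm1 included each other, and the nearest of all were Herc6 for Gbp3 and Gbp3 for Irgm1. Gbp2, Gbp5 and Iigp1 were among the 20 nearest of one another, except that Gbp5 was not among those of Gbp2. The nearest gene was Fam26f for Gbp2 and Tgtp1 for both Gbp5 and Iigp1. Igtp and Irgm2 were among the 20 nearest of each other, and Gbp10 was the nearest to Gbp6. The nearest to Irf1 was Traf5 and the nearest to Gbp7 was Gm4285. None of the other 9 genes was among the 20 nearest of Irf1, of Gbp6 or of Gbp7. No gene had more than 2 of the other 9 among its 20 nearest.

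The motif classes were then read over the tested genes whose RefSeq promoter was searched. This grouping was formed after the promoters of 8 of the 10 genes were seen and is given with no test. Of 22 genes with 2 or more response elements and no gamma activated site, the class of Gbp3 and Irgm1, 10 were higher in tumours, 2 lower and the median log2 fold change was 0.72. Beside Gbp3 it held Isg15 (3.98), Ifit1 (3.85), Ifit3 (2.72) and Apol9a (5.33). The 2 lower genes were Tlr6 (-0.78, adjusted p = 0.0233) and Cybb (-0.57, adjusted p = 0.0256). Irgm1 (0.84, adjusted p = 0.0542) and Socs1 (-0.83, adjusted p = 0.087) did not pass. All were named after their values were seen. The class was formed from Gbp3 and Irgm1 and counts Gbp3 as higher. Isg15, Ifit1, Ifit3 and Apol9a are also in the type I list. The rest of the genes counted as higher were Apol9b (4.94), Oas1g (3.97), Ifit3b (3.04), Ddx60 (2.08) and Ifit1bl2 (1.77). All of these but Ddx60 belong to gene families held in that list. The count is therefore not independent evidence. Of 45 genes with both motifs, the class of Gbp5, Gbp7, Igtp and Irgm2, 8 were higher, 15 lower and the median was -0.26. Of 265 genes with 1 response element and no gamma activated site, the class of Gbp2, 25.3% were higher and 22.6% lower, with a median of 0.04. Of 681 genes with a gamma activated site alone, the class of Irf1, 19.1% were higher and 25.3% lower, with a median of -0.05. Of 8976 genes with neither motif, 22.3% were higher and 22.2% lower, with a median of 0.02. Near-copies such as the Ifit genes share promoter sequence, so that genes of a class are not independent of each other.

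Genes that act with the GTPases were looked at last. Of 12 tested genes of the ubiquitin-like conjugation system, which marks the vacuoles the GTPases load onto, 3 rose, 2 fell and 7 did not pass. Gabarapl1 fell by 0.73 (SE 0.12, adjusted p = 0.00289) and Map1lc3b by 0.43 (SE 0.09, adjusted p = 0.00888), both kept without any single library, and the 3 rises, of Atg5 (0.50), Gabarap (0.42) and Atg16l1 (0.35), were all lost without gland 1 or gland 2. Of 7 enzymes and carriers of prenylation, the lipid anchor of several guanylate-binding proteins, the farnesyltransferase subunit Fntb rose by 1.10 (SE 0.14, adjusted p = 8.8e-04) and 6 did not pass.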

How the data were processed

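RNA-seq of 3 mouse breast cancer tissues and 3 mammary glands was deposited as 1 table of 24421 gene symbols. The submitters' processing notes name HISAT2, StringTie and mm10, without versions or roles. Neither the annotation nor the unit was given in the sources used here. The authors' values were read as FPKM, scaled for length and library size, because they were not whole and summed to between 486080 and 582996 per library. Depth is unknown, so no counting error entered.

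Tumour minus gland was tested on log2(FPKM + 1) for the 13364 genes averaging 1 FPKM or more, using limma 3.58.1 (trend, 2-sided, R 4.3.3), Benjamini-Hochberg adjustment over all of them and a threshold of 0.05. Shared words of 50 bases were counted over GENCODE M21 transcripts. The numbers do not pair libraries (deviations of same-numbered libraries had r = -0.05, -0.12 and -0.12 across genes). The genes, lists and alternatives were chosen with earlier results of these data known. All 10 genes are named, any signalling or GTPase gene may be, and of other lists up to 5 called genes of smallest p and 4 uncalled genes of highest mean. Some genes of the lists are counted but not reported here by name.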

Additional observations from a re-analysis of the deposited data

How the results depend on the processing

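Of the 10 genes 6 passed, 1 higher and 5 lower. Without one library in turn the number lay between 3 (without gland 1 or tumour 2) and 6, with the number of all genes called between 4217 and 6402. Without glands 1 and 3 together, the glands with high lymphoid markers, 2 passed (Gbp3 and Irgm1, both higher) of 1858 genes called in all, in a fit with fewer samples whose 1 gland is assumed to vary like the other libraries. With a fold change of at least 2 required as well, 2967 genes were called. With the replicate number as a block, 3 of the 10 genes passed, all lower, of 4728 genes called in all (2147 higher and 2581 lower). The numbers do not pair the libraries.

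Gbp2, Gbp3, Gbp5, Gbp6, Gbp7, Iigp1, Irf1 and Irgm1 kept their direction in all alternatives. Igtp turned to 0.50 without glands 1 and 3 and lay between -0.63 and 0.17 without single libraries. Irgm2 turned to 0.47 without glands 1 and 3 and lay between -0.31 and 0.27 without single libraries. Quantile normalization moved the median of all genes to 0.12. Tumours 1 and 2 differed least among the tumours (median difference 0.20 on the log2 scale, against 0.24 and 0.35). With both averaged as 1 sample, 5 of the 10 genes passed, all lower, of 5454 genes called in all (2578 higher and 2876 lower). That alternative was chosen after seeing the data. The cause of these differences was not tested, and low values such as Gbp5 in tumour 3 rest on an unknown number of reads.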
